A study of Drosophila melanogaster with 4 samples.

Results

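The genes of the mitochondrial ribosome were compared between larvae of Drosophila melanogaster mutant for invadolysin and wild-type larvae. Genes were chosen by name: those whose symbol starts with mRpL, for the large subunit, or mRpS, for the small subunit. The rule also took in bonsai and tko, small subunit genes whose symbols have another form. Of 75 such genes in the gene table, 69 had a probe of their own among the 13891 features measured, 43 of the large and 26 of the small subunit. The genes mRpL47 and tko had only probes annotated to several genes, 2 and 4 probes, and mRpL14, mRpL34, mRpL53 and mRpS21 had no probe in the annotation used. These 6 genes were not analysed here.

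The mitochondrial ribosome makes the few proteins that mitochondrial DNA encodes, which are subunits of the respiratory chain and of ATP synthase. Its RNA comes from mitochondrial DNA, whereas its proteins are encoded in the nucleus, made in the cytoplasm and imported. The small subunit holds the messenger RNA and decodes it, and the large subunit joins the amino acids and releases the chain through a tunnel. In Drosophila, tko, which encodes the counterpart of bacterial S12, and bonsai, the counterpart of S15, are known from mutants with slow growth and weak respiration.

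Each of 4 two-colour arrays set 1 sample of total RNA from larvae carrying the invadolysin allele 4Y7 against 1 sample from Canton S wild-type larvae, and the sample names differ on every array. Invadolysin encodes a zinc metalloprotease. Stocks were kept at 25 degrees, and the sources used here do not give larval age, sex, zygosity, the number of larvae per sample or the lesion of 4Y7. The mutant was labelled with Cy5 on replicates 1 and 4 and with Cy3 on replicates 2 and 3. The Invadolysin probe lay at a log2 ratio of 0.10 ± 0.16 (SD, n = 4) and is no check of the labels, since its place relative to the lesion is unknown.

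Values are log ratios, taken to be on the log2 scale and read as mutant over wild type from the wording of the titles, so that -1 is a 2-fold lower level in the mutant, and that reading is likely rather than stated. The values were used as deposited, because arrays labelled in opposite ways were positively correlated (Pearson's r over all probes = 0.401 and 0.397 for replicate 1 with replicates 2 and 3), although r was 0.031 and 0.039 for replicate 4 with the same arrays. If the arrays with the mutant in Cy3 were still to be turned in sign, the median of the 69 genes would be 0.18 rather than -0.74. A gene's value of 1 sign on all arrays would then be a dye effect, which cannot be told apart from these files. The number of arrays limits the precision, and p-values measure the spread between these 4 arrays.

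Genes of the mitochondrial ribosome lay lower in the mutant larvae as a body. The median log2 ratio of the 69 genes was -0.74, a 1.67-fold lower level, where that of all features was 0.02. The middle part of the list, between its quartiles, ran from -0.91 to -0.53. Means were below 0 for 65 of the 69 genes, against 48.5% of all features, and 49 genes were below 0 on all 4 arrays, against 14.9% of features. Above 0 on all 4 arrays were 0 of the 69 genes, against 1948 of the 13891 features. In whole larvae, fewer cells rich in these transcripts and less of them per cell cannot be told apart.

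Single genes were harder to call than the list. In limma over all features, adjusted by Benjamini-Hochberg and with 0.05 as the threshold, 1 of the 69 genes, mRpS16, fell and 0 rose, against 0.425% and 0.396% of features. At an unadjusted p under 0.05 in limma, 50 of the 69 were lower and 0 higher, against 11.3% and 7.91% of features. Among the 69, 21 had a limma adjusted p under 0.1, all of them lower, where 3.17% of features did so. The 95% confidence interval of the mean, before any adjustment, restates the unadjusted p and is no further result. It lay below 0 for the same 50 genes and spanned 0 for the other 19. A log2 ratio under -1, more than a 2-fold lower level, was found for 10 genes, against 3.46% of features.

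**Figure D1:**
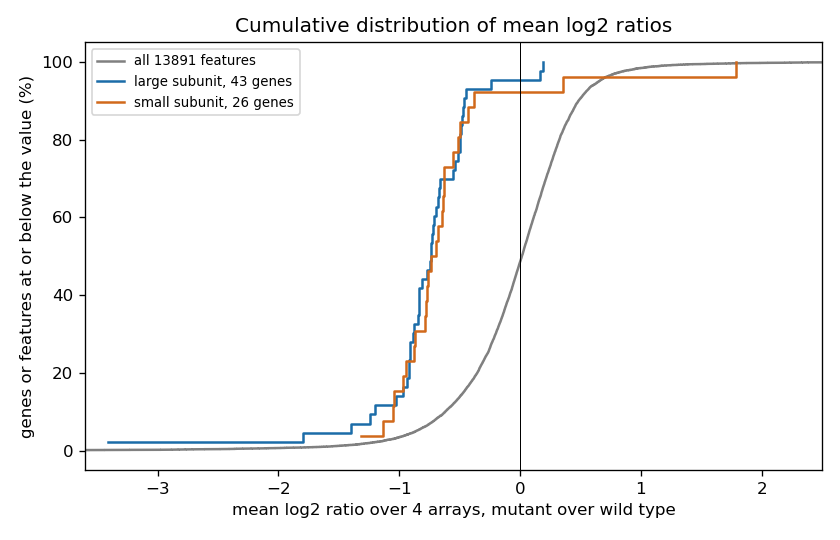
Cumulative share of genes or features (vertical axis, percent) at or below a mean log2 ratio over the 4 arrays (horizontal axis) for the 43 large subunit genes, the 26 small subunit genes and all 13891 features. The curves of both subunits run close together, with medians of -0.74 and -0.72, left of the curve of all features.

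The medians of large and small subunit genes differed by less than the spread between arrays. The median was -0.74 for the large and -0.72 for the small subunit. On replicates 1 to 4 the median of the large subunit was -0.69, -0.92, -0.95 and -0.47. That of the small subunit was -0.79, -0.86, -0.89 and -0.45 on the same arrays. The small subunit was the lower on replicate 1 and the large subunit on the other arrays, and the large minus small difference in medians per array was -0.01 ± 0.08 (SD, n = 4).

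Taken as means over genes, the large minus small difference was -0.17 ± 0.12 (SD, n = 4), with -0.03, -0.16, -0.34 and -0.16 on replicates 1 to 4. This difference rested on mRpL42, mRpL45 and mRpS17, the 3 genes whose SD over the arrays was above 2. Without them it was 0.00 ± 0.14, with 0.12, -0.14, -0.10 and 0.13 on the 4 arrays, so its sign was not shared by the arrays. In mammals the proteins named S18A and S30 sit in the large subunit, and with mRpS18A and mRpS30 counted there the difference in means was -0.17. Below 0 on all 4 arrays were 31 of 43 large subunit genes (72.1%) and 18 of 26 small subunit genes (69.2%). No test of this difference is given, since the genes were chosen with results of these data known.

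**Figure D2:**
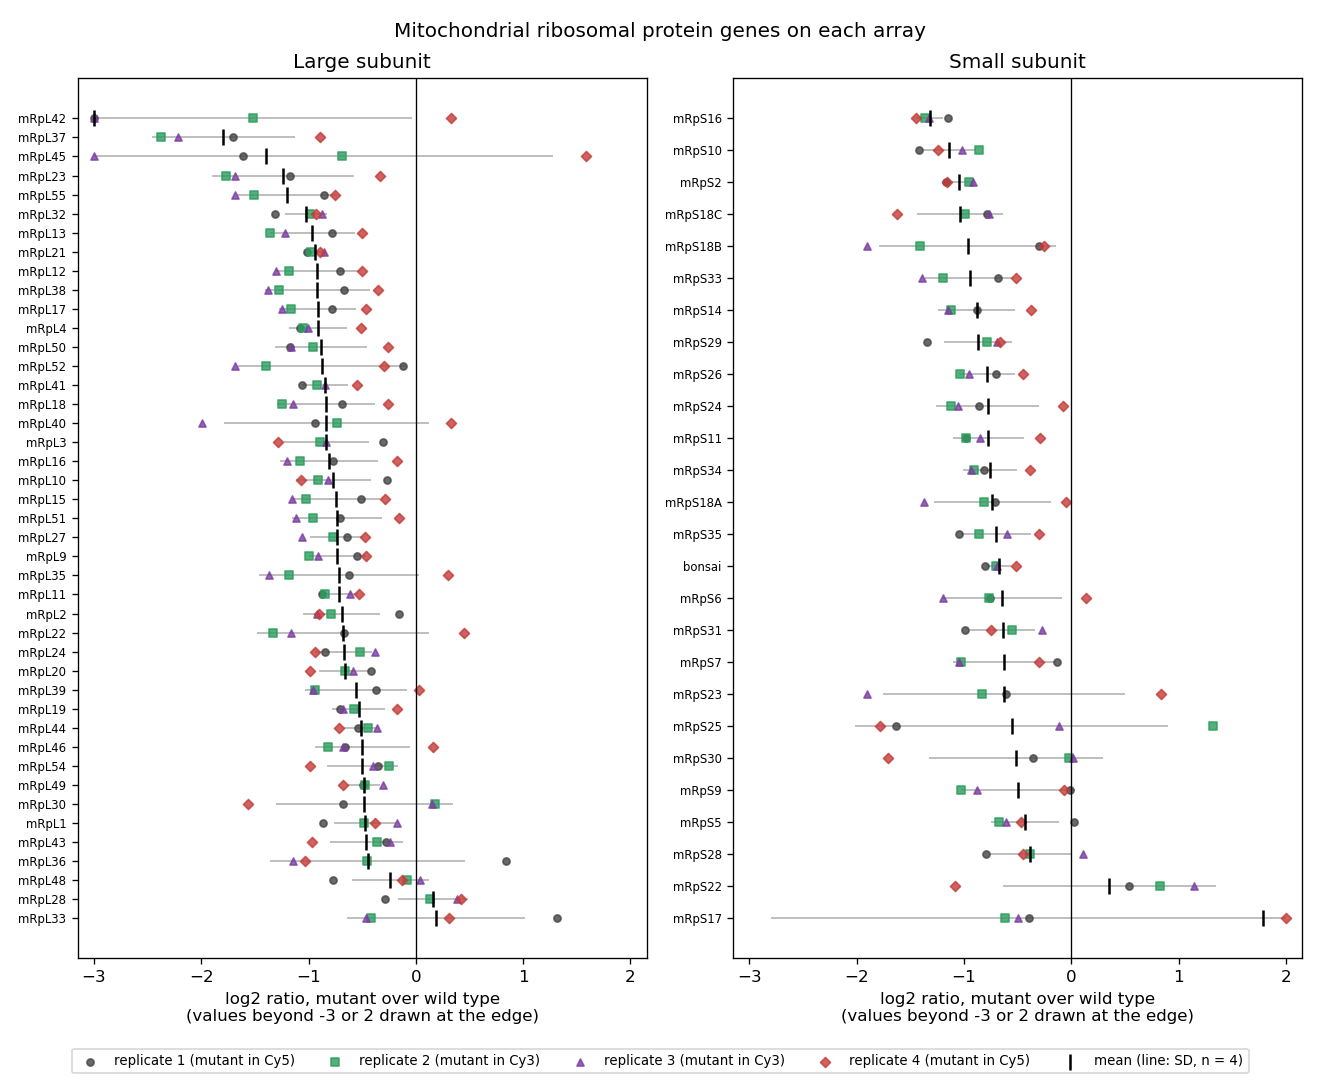
Log2 ratios of mutant over wild type (horizontal axis) of each large subunit gene (left) and small subunit gene (right), with 1 symbol per array, a tick for the mean and a line for the SD over 4 arrays. Values beyond -3 or 2 are drawn at the edge. Most genes sit between -1 and -0.5, with mRpS16 lowest in the small subunit and mRpS17 far to the right through replicate 4.

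Among small subunit genes, mRpS16 was the one that fell. It encodes the counterpart of bacterial S16, a protein of the body of the subunit needed for its assembly in bacteria. Its log2 ratios were -1.14, -1.36, -1.32 and -1.44 on replicates 1 to 4. All 4 arrays gave nearly the same value, and the mean of -1.32 ± 0.13 (SD, n = 4; limma adjusted p = 0.0400) is a 2.49-fold lower level. The call was lost without any 1 array (limma adjusted p = 0.217, 0.187, 0.123 and 0.0554 without replicates 1 to 4), with a dye term (0.0614) on the arrays with the Cy5-labelled mutant (0.304) and with an ordinary t statistic (0.128), at means from -1.38 to -1.28. The span of mRpS16 overlaps that of ReepB in the gene table, and ReepB was at -0.84 ± 0.35. The labelling used double-stranded cDNA, which does not keep the strand, and whether the probe lies in the shared stretch is not known here.

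Both mRpS2 and mRpS10 came next by p in the small subunit. They encode counterparts of bacterial S2, which sits between head and body, and S10, a protein of the head. Values of mRpS2 were -1.17, -0.96, -0.91 and -1.16 on replicates 1 to 4, a mean of -1.05 ± 0.14 (limma adjusted p = 0.0532). For mRpS10 they were -1.42, -0.86, -1.02 and -1.24, a mean of -1.14 ± 0.24 (limma adjusted p = 0.0543). All of these values lie below -0.8, and both genes were a little lower on the arrays with the mutant in Cy5.

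In the head, the part of the small subunit that swivels as the messenger moves on, all 4 measured genes were below 0 on every array. Beside mRpS10 these were mRpS14 at -0.88 ± 0.36, mRpS7 at -0.63 ± 0.48 and mRpS9 at -0.50 ± 0.53. The last pair were near 0 on the arrays with the mutant in Cy5, at -0.13 and -0.30 for mRpS7 and -0.01 and -0.07 for mRpS9, and near -1 on the others. In the platform group, named for the part that holds the end of the messenger near the exit site, the 6 genes ran from -1.04 to -0.65. All relatives of bacterial S18 were counted there, although the mammalian protein named S18A sits in the large subunit. The members related to bacterial S18 were mRpS18C at -1.04 ± 0.40, mRpS18B at -0.97 ± 0.82 and mRpS18A at -0.74 ± 0.54.

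The gene bonsai was the steadiest of the platform group. Its log2 ratios of -0.80, -0.70, -0.69 and -0.52 on replicates 1 to 4 gave a mean of -0.68 ± 0.12 (limma adjusted p = 0.0984). The genes mRpS11 (-0.77 ± 0.33) and mRpS6 (-0.65 ± 0.56) complete the platform group, and mRpS6 was above 0 on replicate 4. The mean of bonsai was -0.66 over replicates 1 and 4, labelled alike, and -0.70 over replicates 2 and 3.

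In the body of the small subunit the 3 measured genes had means on both sides of 0. Beside mRpS16, mRpS5, which in bacteria lies where the messenger enters, was at -0.43 ± 0.32 and was at 0.03 on replicate 1. The third gene, mRpS17, encodes the counterpart of a bacterial protein that binds ribosomal RNA early in assembly. Its values were -0.40, -0.62 and -0.50 on replicates 1 to 3 and 8.66 on replicate 4. The mean of 1.79 ± 4.58 rests on that array, and without replicate 4 it was -0.51.

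Among the remaining small subunit genes, mRpS33 lay at -0.95 ± 0.41. The highest of those genes were mRpS28 (-0.38 ± 0.37) and mRpS22, with 0.54, 0.82, 1.14 and -1.08 on replicates 1 to 4 and a mean of 0.36 ± 0.99. Replicate 4 went against the other arrays for mRpS22. Over replicates 1 and 4, labelled alike, its mean was -0.27.

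In the large subunit 0 of 43 genes passed the threshold in limma, against 0.425% of features called lower, and 32 were lower at an unadjusted p under 0.05, against 11.3% of features. The lowest mean with the same sign on all arrays was that of mRpL37, a protein found in mitochondrial but not bacterial ribosomes. Its log2 ratios were -1.70, -2.38, -2.21 and -0.89, a mean of -1.80 ± 0.67 and a 3.47-fold lower level (limma adjusted p = 0.0548). Another gene below 0 on all arrays was mRpL55, the counterpart of bacterial L31, with -0.86, -1.51, -1.69 and -0.76 and a mean of -1.20 ± 0.46 (limma adjusted p = 0.0692). Both were lowest on the arrays with the mutant in Cy3.

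The 3 lowest means of the large subunit included a pair that rested on few arrays. For mRpL42 the values were -5.62, -1.52, -6.83 and 0.33 on replicates 1 to 4, a mean of -3.41 ± 3.37 (limma adjusted p = 0.199). For mRpL45, whose product holds the mammalian mitochondrial ribosome at the inner membrane, they were -1.61, -0.69, -4.87 and 1.58, a mean of -1.40 ± 2.67. Both genes were above 0 on replicate 4 and far below 0 on replicate 3. An SD above 2 was found for 3 of the 69 genes and for 1.28% of all features.

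Around the exit of the peptide tunnel, where the growing chain leaves, the 5 measured genes ran from -1.24 to -0.67 with a median of -0.91. The lowest, mRpL23, gave -1.17, -1.77, -1.68 and -0.33 on replicates 1 to 4, a mean of -1.24 ± 0.66. The most even was mRpL32, whose product is matured by a mitochondrial protease in yeast and mouse. Its values were -1.31, -0.98, -0.88 and -0.93, a mean of -1.03 ± 0.19 (limma adjusted p = 0.0587). The group's other genes were mRpL17 (-0.91 ± 0.36), mRpL22 (-0.68 ± 0.80) and mRpL24 (-0.67 ± 0.26), and mRpL22 was above 0 on replicate 4.

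The stalk, which recruits the factors that drive translation, was lower on every array in all 3 of its genes. Values of mRpL12, whose product forms the stalk and is known in Drosophila for a role in growth, were -0.71, -1.18, -1.31 and -0.50, a mean of -0.92 ± 0.38. At the base of the stalk, mRpL10 was at -0.77 ± 0.35 and mRpL11 at -0.72 ± 0.17. These genes had limma adjusted p = 0.0903, 0.117 and 0.0963, in the same order.

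Among the remaining large subunit genes, mRpL21, the counterpart of bacterial L21, was the least variable of all 69. Its log2 ratios of -1.02, -0.98, -0.86 and -0.89 gave a mean of -0.94 ± 0.07 (limma adjusted p = 0.0595). At the high end were mRpL33 with 1.32, -0.41, -0.46 and 0.31, mRpL28 with -0.29, 0.13, 0.38 and 0.42, and mRpL48 with -0.77, -0.09, 0.04 and -0.13. Each of these 3 genes was above 0 on at least 1 array and below 0 on at least 1. For mRpL36 the mean was -0.45 ± 0.91, and replicate 1, at 0.84, was the array above 0.

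The genes were also set apart by a list of those taken to have a counterpart in bacterial ribosomes, which may not be complete. The 42 genes on the list had a median of -0.74 and the other 27 one of -0.70. Below 0 on all 4 arrays were 33 of the 42 and 16 of the 27. Within the small subunit the medians were -0.77 for 15 genes on the list and -0.64 for 11 others. Within the large subunit they were -0.74 for 27 on the list and -0.78 for 16 others.

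The arrays differed in how far these genes lay below 0, and the mutant's dye went with that difference. The median of the 69 genes was -0.71, -0.91, -0.92 and -0.46 on replicates 1 to 4, with 65, 65, 63 and 57 genes below 0. Replicates 1 and 4, with the Cy5-labelled mutant, gave -0.60, and replicates 2 and 3, with the Cy3-labelled mutant, -0.93. Both orientation means were below 0 for 62 of the 69 genes. The Cy3 mean was the lower for 48 genes, and 51.4% of all features shared that order.

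**Figure D3:**
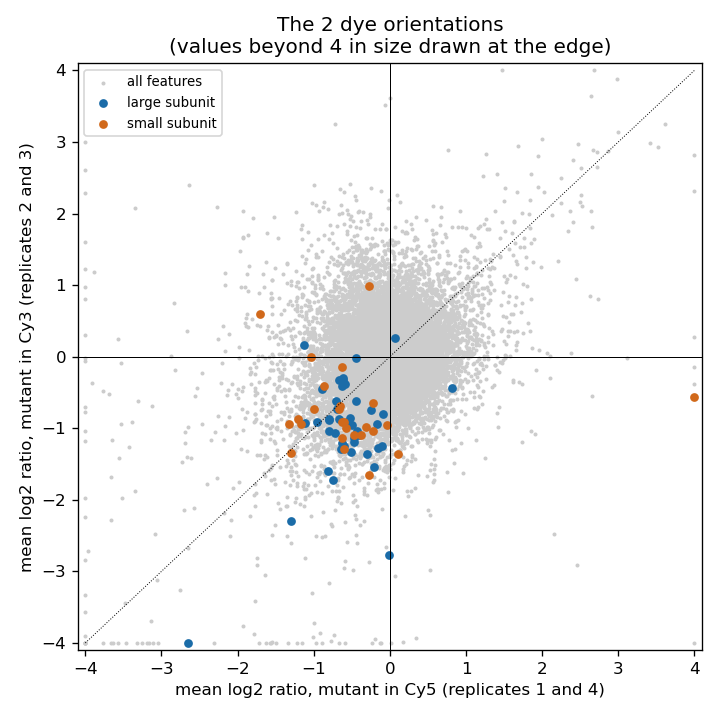
Mean log2 ratio over replicates 1 and 4, with the Cy5-labelled mutant (horizontal axis), against that over replicates 2 and 3, with the Cy3-labelled mutant (vertical axis), for all features in grey and the genes of both subunits in colour. Values beyond 4 in size are drawn at the edge. Of the 69 genes, 62 lie below 0 on both axes, and 48 lie lower with the mutant in Cy3.

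The order of the genes among themselves was shared by replicates 2 and 3 and not by replicate 4. Over the 66 genes with an SD of 2 or less, Pearson's r was 0.825 between replicates 2 and 3, which share dye orientation. It was 0.650 over all features, but those were not limited by SD, so the sets are unlike. The limit itself leaves out genes on which the arrays differ most. Replicate 4 gave -0.28 with replicate 2 and -0.33 with replicate 3, where all features gave 0.039 and 0.041. With replicate 1 the values were 0.254, 0.247 and 0.158 for replicates 2, 3 and 4. Such values are taken across genes, which do not replicate a sample, and serve as a description. Replicate 4 was the highest of the arrays for 40 of the 69 genes and the lowest for 14, and 10 genes were below 0 on replicates 1 to 3 and above 0 on replicate 4.

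**Figure D4:**
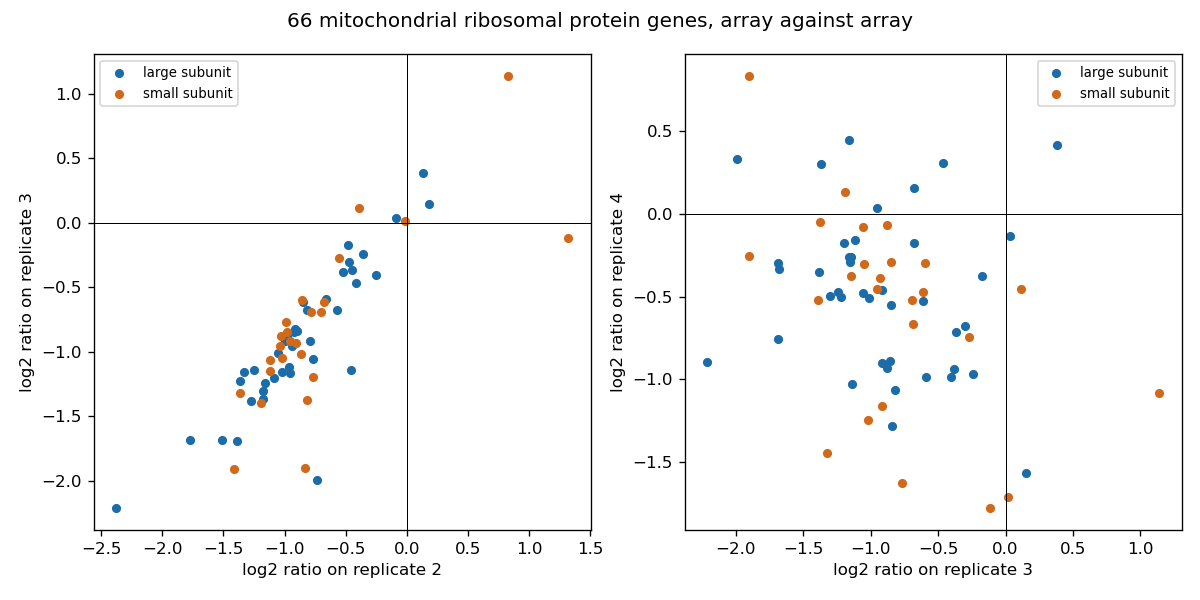
Log2 ratios of the 66 mitochondrial ribosomal genes with an SD of 2 or less, replicate 2 against replicate 3 (left) and replicate 3 against replicate 4 (right). Genes follow a common order on the left (r = 0.825) and a weakly opposite one on the right (r = -0.33), while most points are below 0 on all 3 arrays.

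How many of the 69 genes passed depended on how arrays were weighed. With limma's array weights, which ran from 0.232 for replicate 4 to 5.47 for replicate 2, 57 genes were called lower and 1, mRpS22, higher, but so many features were then called that 21.9% of all were lower. On the 2 arrays with the mutant in Cy3 limma called 46 lower and mRpS22 higher, against 9.53% of features lower, and on the 2 with it in Cy5 it called 0. Without features beyond 5 in size on any array, which took out mRpL42 and mRpS17, 6 genes were called, all lower, against 0.958% of features. These were mRpS16, mRpS2, mRpS10, mRpL37, mRpL32 and mRpL21.

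Genes beside the mitochondrial ribosomal genes on the chromosomes lay nearer 0. The 122 measured protein-coding neighbours had a median of -0.08, with 58.2% of them below 0, against 0.02 and 48.5% for all features. In limma 3 of the 122 were called lower and 1 higher, against 0.425% and 0.396% of features. By the gene table, 40 of the 69 genes overlap the span of another protein-coding gene. The median of these 40 was -0.74 and that of the other 29 also -0.74. The 38 measured overlapping genes had a median of -0.12, with 65.8% of them below 0. No pair of the 69 genes were neighbours of each other.

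Other genes of mitochondrial gene expression lay closer to 0. Of 10 mitochondrial aminoacyl-tRNA synthetase genes, which charge transfer RNAs for this ribosome, 0 passed in limma and 9 had means below 0, with a median of -0.27. The smallest p were those of PheRS-m (-0.34 ± 0.21), ValRS-m (-0.29 ± 0.09) and AsnRS-m (-0.34 ± 0.38). Of 9 translation factor genes 0 passed and 4 were lower at an unadjusted p under 0.05, against 11.3% of features, with a median of -0.24. Among the synthetases 0 of 10 were lower at that p. The differences between these lists and the ribosome were not tested. Among them mEFTu1, which brings transfer RNA to the ribosome, was at -0.56 ± 0.21, its exchange factor mEFTs at -0.69 ± 0.62 and the recycling factor mRRF1 at -0.55 ± 0.46.

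Genes listed for copying, transcribing or processing mitochondrial DNA and RNA had means on both sides of 0. Of the 16 genes listed 0 passed in limma, and the median was -0.16. At an unadjusted p under 0.05 in limma, 5 were lower and 1 higher, against 11.3% and 7.91% of features. The gene mtSSB, for the protein that coats single-stranded mitochondrial DNA, was at -0.998, -1.01, -1.06 and -0.75 on replicates 1 to 4, a mean of -0.95 ± 0.14. Values of Ccdc56, on the list although it is needed for cytochrome c oxidase assembly, averaged -0.89 ± 0.15, and those of mldr -0.90 ± 0.47. All 3 were below 0 on all 4 arrays.

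The respiratory chain and ATP synthase, where the products of this ribosome are built in, had the lowest median of the other mitochondrial and ribosomal lists. Of 69 genes with nuclear-encoded subunits, 38 were lower at an unadjusted p under 0.05 in limma, against 11.3% of features. Below 0 on all 4 arrays were 40, against 14.9% of features, and the median was -0.56. Over all features 0 of these 69 genes fell and 1 rose, against 0.425% and 0.396% of features. The 1 was RFeSP, the Rieske iron-sulphur subunit, at 3.23 ± 0.50 (limma adjusted p = 0.0140). That call was lost with a dye term (limma adjusted p = 0.0509), without replicate 1 (0.217), on the arrays with the Cy5-labelled mutant (0.0540) and with an ordinary t statistic (0.130), and with the Cy3 arrays turned in sign the mean was 0.29. Cytochrome c oxidase genes with small p were COX8 at -1.13 ± 0.22 and COX6B at -1.005 ± 0.067. The list takes in copies of subunit genes named as "like", and it was drawn up by symbol.

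Genes named for cytoplasmic ribosomal proteins, which build the ribosome that makes all nuclear-encoded proteins, lay near 0 in their median. Of 39 genes 0 passed in limma, and the median was -0.14. At an unadjusted p under 0.05 in limma, 5 were lower and 2 higher, against 11.3% and 7.91% of features. Medians of the list on replicates 1 to 4 were -0.09, -0.29, -0.41 and 0.05, so that replicate 4 lay on the other side of 0. The genes with the smallest p were RpL28 (-1.23 ± 1.03), RpL10Aa (0.86 ± 0.69) and RpS20 (-0.53 ± 0.29). This list too was drawn up by symbol. It takes in copies such as RpL10Aa and genes named as "like", and it does not hold every such gene. Below 0 on all 4 arrays were 5 of these 39 genes and 49 of the 69 mitochondrial ones, against 14.9% of features. The difference between the lists was not tested.

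**Figure D5:**
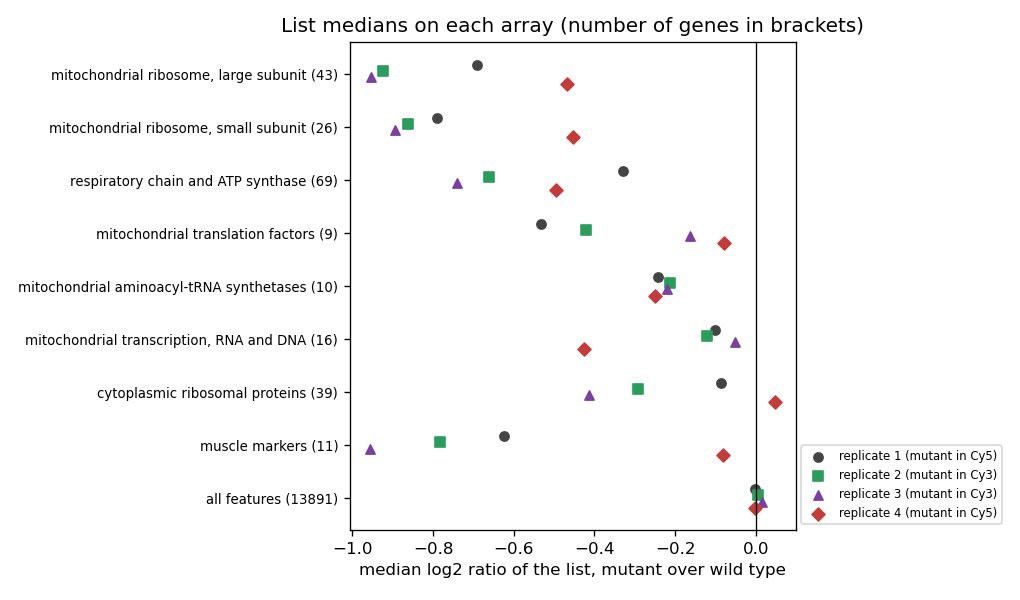
Median log2 ratio (horizontal axis) of each gene list on each of the 4 arrays, 1 symbol per array, with the number of genes in brackets. Both subunits of the mitochondrial ribosome lie between -0.95 and -0.45 on all arrays, and muscle markers come near 0 on replicate 4.

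Markers of muscle, a tissue rich in mitochondria, also lay below 0, and 0 of them passed in limma. All 11 measured markers of 16 listed had means below 0, from -1.03 for Msp300 to -0.21 for Act87E, against 48.5% of features. On all 4 arrays 8 were below 0, against 14.9% of features. The markers' median was -0.62, -0.78, -0.96 and -0.08 on replicates 1 to 4. The mitochondrial ribosomal genes lay at -0.71, -0.91, -0.92 and -0.46 on the same arrays. The medians of both lists lay nearer each other on replicates 1 to 3 than on replicate 4. Salivary gland markers (3 genes) had a median of 0.96 with means from 0.73 to 1.59, and fat body markers (3 genes) one of 0.26 with means from -0.23 to 0.27 and SDs over the arrays from 1.28 to 4.39. Gut markers (5 genes) ran from -1.87 to 0.88 around a median of -0.39, and testis and germ line markers (4 genes) from -0.17 to 0.50 around 0.11. The part of these tissues in the ribosomal values was not tested.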

How the data were processed

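The authors deposited 1 log ratio per probe and array, taken here as log2. The sources used here give no base, centring, within-array normalization or direction, and base 2 was assumed because values reached -13.22. Column medians lay from -0.0015 to 0.0128. The platform annotation gave 1 gene symbol for 12658 of 14569 probes, several for 96 and none for 1815, and 0 symbols were renewed through the gene table (Release 6 plus ISO1 MT). Probes of 1 gene were averaged per array, which left 13891 features; each of the 69 genes had 1 probe.

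Two-sided tests of the mean ratio of each feature against 0 used lmFit and eBayes of limma 3.58.1 (R 4.3.3; 3.27 prior degrees of freedom). P-values were adjusted by Benjamini-Hochberg over all features, with 0.05 as the threshold, and the steps were tested on simulated data. Summaries and figures used Python 3.11.15, pandas 2.3.3 and matplotlib 3.10.9. The alternatives were centring, scale and quantile normalization, a dye term, array weights, each array left out, each dye orientation, turned signs, probes tested singly, no extreme features and an ordinary t statistic. Members and lists were chosen with earlier results of these data known. Named are genes past the threshold, the 6 lowest, 4 highest and 4 of smallest p per subunit, all role group members, bonsai, the 3 of smallest p per other list, and Invadolysin. Promoter and protein sequences were not analysed here.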

Additional observations from a re-analysis of the deposited data

Results flagged for a closer look

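On 4 arrays, a value was singled out where its gap to the nearest of the others took up more of the gene's whole range than Dixon's critical value at the 95% level. This held for 5 of the 69 genes. Chance singles out about 1 in 20 such groups. The gene mRpS17, a small subunit body protein, stood at 8.66 on replicate 4. Replicate 4 was also the array apart for mRpL4 (-0.51, the highest), mRpL43 (-0.97, the lowest) and mRpL46 (0.16, the highest). For mRpL2, the counterpart of bacterial L2 at the heart of the large subunit, replicate 1 stood apart at -0.16 while the other arrays lay from -0.92 to -0.79. The mean of mRpL4 was -0.91 ± 0.27, that of mRpL43 -0.46 ± 0.34, that of mRpL46 -0.50 ± 0.44 and that of mRpL2 -0.69 ± 0.36 (SD, n = 4).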

How the results depend on the processing

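The medians of the 69 genes and of both subunits stayed below 0 under each alternative that could change them except turned signs. The number of single genes called moved with the arrays used. The dye term, the ordinary t statistic and the probes tested singly leave the medians as they are. With 2 arrays labelled each way a dye term cannot move a gene's mean, so it is no check of the medians against dye. Against 114 features called (59 lower, 55 higher), with mRpS16 the 1 mitochondrial ribosomal gene called, quantile normalization gave 35 lower features. A dye term gave 0 features (0 lower, 0 higher) and 0 of the 69 genes, with 3537 features at an unadjusted p under 0.05. Leaving out 1 array gave 0 to 21 features, 0 to 5 lower and 0 to 17 higher, and 0 of the 69 genes, with 1456 to 4077 features at an unadjusted p under 0.05; the median was then -0.90 to -0.69 for the 69 genes, -0.90 to -0.67 for the large and -0.89 to -0.69 for the small subunit. Arrays with the mutant in Cy5 gave 4 features (1 lower, 3 higher) and 0 of the 69 genes. Those with it in Cy3 gave 2573 (1324 lower, 1249 higher), with 46 of the 69 lower, 1 higher and a small subunit median of -0.93. Array weights gave 6079 (3038 lower, 3041 higher), with 57 lower and 1 higher. Leaving out features beyond 5 in size, mRpL42 and mRpS17 among them, gave 217 (132 lower, 85 higher), with 6 of the remaining mitochondrial ribosomal genes lower. The ordinary t statistic gave 1 (0 lower, 1 higher) and 0 of the 69, with 2267 at an unadjusted p under 0.05. The causes were not tested.

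The large minus small difference of -0.17 in means became -0.015 without features beyond 5 in size, -0.018 as a difference of medians, and 0.0014 without genes of SD above 2, an alternative chosen after seeing the data. Other genes changed sign with the arrays used: mRpL33 ran from -0.19 (without replicate 1) to 0.40 when 1 array was left out and was at -0.44 on the Cy3 arrays and -0.29 with array weights, mRpS17 ran from -0.51 (without replicate 4) to 2.59 and was at -0.56 on the Cy3 arrays and -0.30 with array weights, and mRpS22 at -0.27 on the Cy5 arrays.

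With the Cy3 arrays turned in sign, 0 features were called (0 lower, 0 higher), 0 of the 69 genes among them, with 1053 at an unadjusted p under 0.05. The medians were then 0.18 for all 69, 0.23 for the large and 0.15 for the small subunit, and large minus small was 0.075. In that coding, large subunit genes stood at 0.10 (mRpL10), 0.015 (mRpL11), 0.32 (mRpL12), 0.29 (mRpL17), 0.57 (mRpL22), 0.49 (mRpL23), -0.097 (mRpL28), 0.35 (mRpL36), 0.50 (mRpL37), 0.76 (mRpL42), 1.38 (mRpL45) and 0.39 (mRpL55). Small subunit genes stood at 0.017 (bonsai), 0.14 (mRpS11), 0.25 (mRpS14), 0.024 (mRpS16), 0.36 (mRpS18A), 0.69 (mRpS18B), -0.63 (mRpS22), 0.35 (mRpS33), 0.21 (mRpS5), 0.34 (mRpS6), 0.41 (mRpS7) and 0.46 (mRpS9). The other genes stood at 0.048 (COX6B), 0.16 (COX8), 0.063 (Ccdc56), -0.035 (Invadolysin), 0.055 (PheRS-m), -0.48 (RpL10Aa), 0.78 (RpL28), 0.18 (RpS20), 0.016 (ValRS-m), 0.47 (mEFTs), 0.17 (mldr) and 0.079 (mtSSB).

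No paired analysis was possible other than the test reported, because each ratio already pairs a mutant with a wild-type sample on 1 array and the test against 0 uses that pairing. With 4 arrays and no signal over background given, weak probes could not be told from bright ones.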
